A study of Mus musculus with 10 samples.

Results

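The RNF and TRIM genes are numbered gene families of RING-finger proteins, most of which are E3 ubiquitin ligases. The members described here are all protein-coding mouse genes whose symbol starts with Rnf or Trim followed by a digit. These are 153 genes, 85 RNF and 68 TRIM, of the 55573 Ensembl genes in the count table. They were measured by RNA sequencing in bone marrow B-cell progenitors sorted by the fluorescence of a histone tag. The 5 GFP high libraries are labelled quiescent and the 5 GFP low libraries are labelled proliferating. Both groups carried the genotype PAX5-ELN H2B-GFP, received doxycycline and were taken at 35 days. PAX5-ELN joins PAX5, a master regulator of B-cell identity, to elastin and is a leukemia fusion, and H2B-GFP is a fluorescent histone that is diluted as cells divide. The labels give no wild-type group, and they do not give the age or strain of the mice, what drives either transgene, or whether animals were pooled. Nor do they state whether each library is a different animal, and the p-values below therefore cover the spread among these libraries alone.

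Ubiquitin is passed from an E1 activating enzyme to an E2 conjugating enzyme and then, with the help of an E3 ligase, to a target protein. In a RING ligase, zinc-binding cysteines and histidines hold the E2 next to the target, and the resulting ubiquitin chain can send the target to the proteasome, change its partners or relocate it. RNF proteins are named for the RING finger alone and otherwise share little, whereas TRIM proteins carry a RING, B-box domains and a coiled coil, and several TRIM proteins lack the RING. In blood cells the families include ligases of DNA repair (RNF8, RNF168), chromatin (RNF2, RNF20, RNF40, TRIM28), NF-kB signalling (RNF31) and innate immunity (TRIM21, TRIM25 and the TRIM30 group).

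GFP high libraries held 11347097 to 13838769 counts each, and GFP low libraries 10640894 to 14858520. Values are given in CPM, which are counts scaled to a common library size with TMM factors. All 14 tested proliferation genes fell in GFP high (median log2 fold change -1.13), with a summed level of 2190 to 2874 CPM in GFP high, against 4744 to 5898 CPM in GFP low. All 10 B-cell markers were detected, at 14695 to 16800 CPM in GFP high, against 12283 to 13533 CPM in GFP low, and 3 of them rose and 0 fell (8 and 1 with the replicate number as a block). Of T-cell markers 0 of 2 rose and 1, Lck, fell (summed level 2.19 to 5.80 CPM in GFP high, against 3.30 to 11.8 CPM in GFP low, with Cd8a at 0 everywhere). Of neutrophil markers 0 of 3 passed, and 1 rose with the block (3.58 to 12.6 and 3.39 to 7.99 CPM in GFP high and GFP low). Of plasma cell markers 2 of 6 rose (4 with the block) and 1, Jchain, fell (652 to 1116 and 539 to 841 CPM), and of stromal and endothelial markers 1 of 3, Pecam1, rose (254 to 306 and 142 to 178 CPM).

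Of the 153 genes, 98 passed the filter on low counts and were tested, 60 RNF and 38 TRIM. Of the 55 genes that were not tested, 25 had 0 counts in every library. These 25 included Rnf112, Rnf133, Rnf148, Rnf186, Trim29, Trim31, Trim40, and the muscle genes Trim54, Trim55 and Trim72. If counts were independent, a count of 0 would allow up to 3 counts per library, or 0.203 to 0.291 CPM. This limit covers counting error only, and it may be too low because counts here are not independent molecules. The other 30 had at most 47 counts in any library. Among them were Trim71, a TRIM gene of early embryos, with 2 counts in all, and Rnf43, an inhibitor of Wnt receptors, with 2 counts in GFP high libraries 3 and 4 and 0 in the other libraries.

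Per kilobase of exonic sequence, the levels of tested genes spanned a wide range, with a median of 12.8 CPM per kb among RNF genes and 7.83 CPM per kb among TRIM genes over the 10 libraries. The highest RNF levels were those of Rnf7 (142 CPM per kb in GFP high and 182 in GFP low), Rnf187 (129 and 146) and Rnf130 (83.0 and 79.8). Rnf7 encodes the RING subunit of cullin-5 ligases. The highest TRIM levels were those of Trim59 (53.1 CPM per kb in GFP high and 96.7 in GFP low), Trim30a (49.0 and 44.9) and Trim28 (41.4 and 52.3). Summed over all members, RNF genes had 4932 to 5405 CPM in GFP high, against 4450 to 4817 CPM in GFP low, without overlap. TRIM genes had 2295 to 2416 CPM in GFP high, against 2276 to 2440 CPM in GFP low, which overlap throughout.

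GFP high was set against GFP low to ask which ligase genes differ between cells labelled quiescent and cells labelled proliferating. More members rose than fell. Of 98 tested members 24 rose and 6 fell, where 12.0% of all genes rose and 15.4% fell (27.5% in either direction). The counts of the gene lists, above and below, are to be read against these shares. Counts with the replicate number as a block are to be read against 20.7% of all genes higher and 21.0% lower. The test was edgeR's quasi-likelihood test, with p-values adjusted by Benjamini-Hochberg over all 12772 genes tested and a threshold of 0.05. Among RNF genes 12 of 60 rose and 2 fell, with a median log2 fold change over the 60 of 0.17. Among TRIM genes 12 of 38 rose and 4 fell, with a median of 0.15, while the median of all genes was 0.03. Most changes were small. Of the 24 members that rose, 3 rose at least 2-fold, namely Trim30c, Trim30b and Trim3, and the median of the 24 was 0.48. The 6 that fell had a median of -0.62, and 1 of them, Rnf144b, fell at least 2-fold. The libraries did not overlap between the groups for 19 members that were higher and 6 that were lower, where this held for 7.92% and 12.6% of all genes (20.5% in either direction).

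Libraries that share a replicate number deviated from their group means together, and so did libraries numbered 4 and 5 across the groups. The labels do not say what the number marks, and a fit with the replicate number as a block was also made. With it 37 members rose and 12 fell, where 20.7% of all genes rose and 21.0% fell (41.8% in either direction), and all 30 members called without the block were called again. In replicates 1 to 3 alone 14 RNF and 9 TRIM genes rose and 2 and 4 fell, where 1409 of all genes rose and 1629 fell. In replicates 4 and 5 alone 10 RNF and 6 TRIM genes rose and 2 and 4 fell, where 1332 of all genes rose and 1432 fell. Of the 30 calls, 25 were made again among replicates 1 to 3 and 16 among replicates 4 and 5. The libraries numbered 3 stood apart in Y-linked genes, with 9 counts in GFP high library 3 and 2 in GFP low library 3, where the other GFP high libraries held 831 to 2654 and the other GFP low libraries 309 to 2376. Without both of them 19 of the 30 calls were made again, and 8 RNF and 6 TRIM genes rose, where 926 of all genes rose. The 11 that did not pass were Rnf6, Rnf103, Rnf123, Rnf185, Rnf216, Trim11, Trim13, Trim21, Trim26, Trim30d and Trim39. Each of these subsets holds fewer libraries and was filtered on low counts anew. The numbers of genes tested in each subset are not given here, so these counts cannot be read as shares. The share of all gene calls made again is not given here, so the lost calls cannot be called particular to the members.

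**Figure D1:**
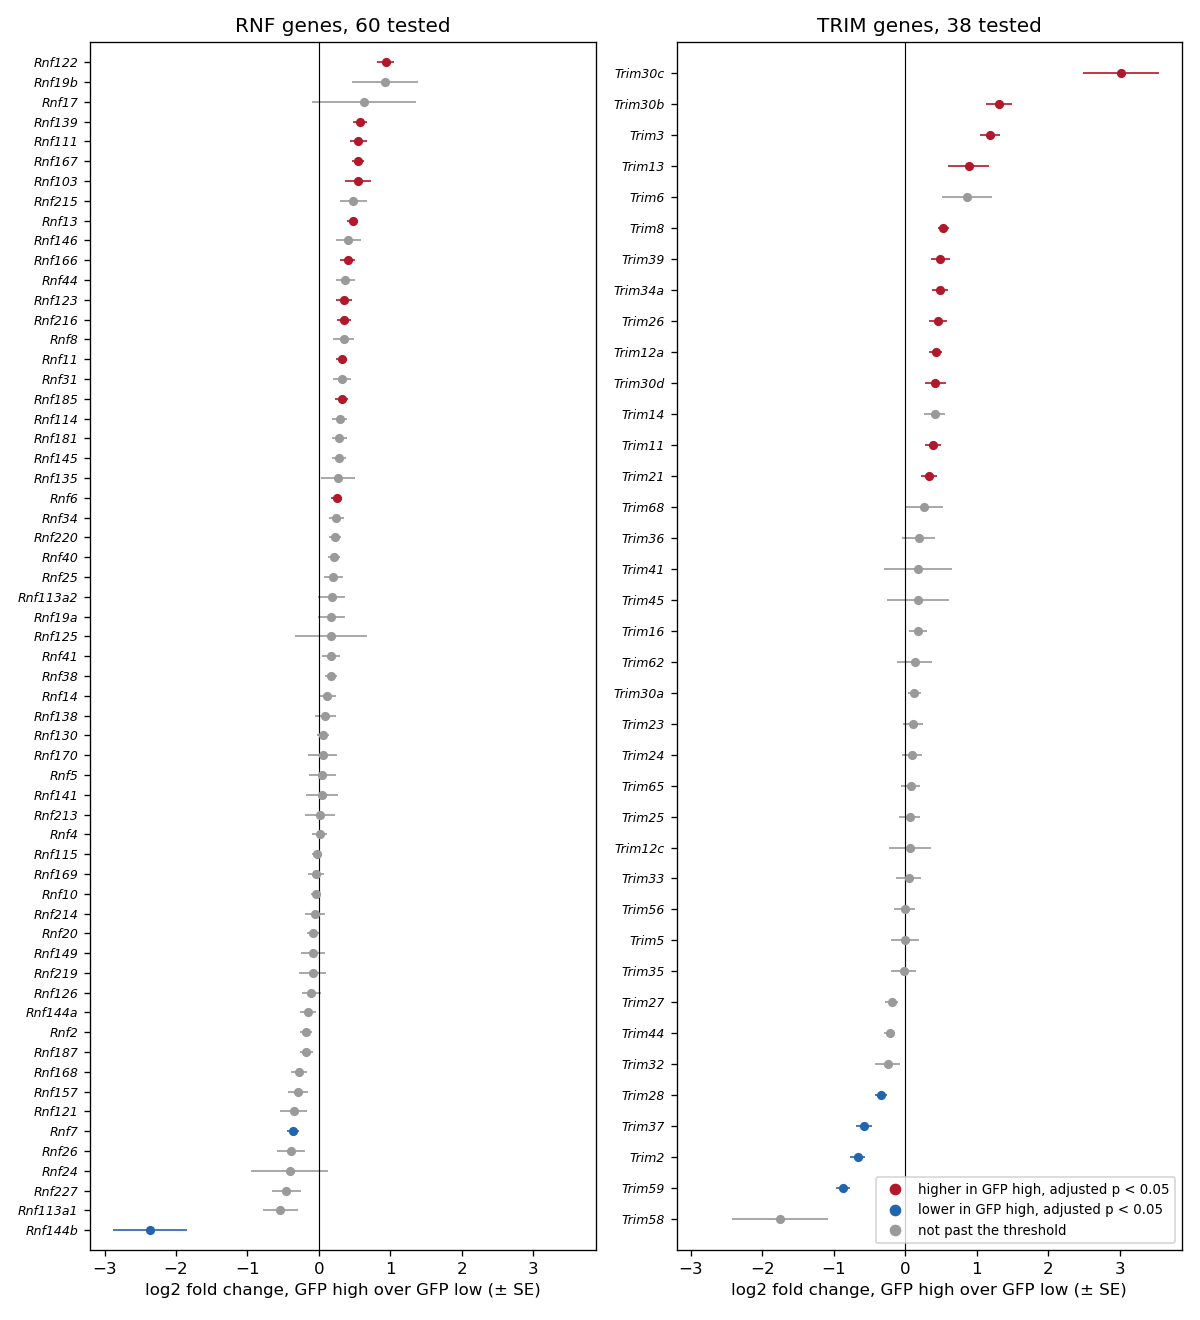
Log2 fold change of GFP high over GFP low with its standard error for the 60 tested RNF genes (left) and the 38 tested TRIM genes (right), ordered by value. Points to the right of 0 are higher in GFP high; 12 genes of each family passed the threshold there, against 2 RNF and 4 TRIM genes on the left.

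The members that fell were led by Trim59, which encodes a membrane-anchored TRIM protein and which is linked to proliferation in tumors. Trim59 (ENSMUSG00000034317, mm10 chromosome 3, 69035288 to 69044755) had 168, 211, 176, 174 and 160.4 CPM in GFP high libraries 1 to 5 and 307, 378, 339.9, 303 and 293 CPM in GFP low libraries 1 to 5. Every GFP high library lay below every GFP low library. Its log2 fold change was -0.87 ± 0.10 (SE, edgeR adjusted p = 6.76e-05), with values of -0.86 for replicates 1 to 3 and -0.85 for replicates 4 and 5. The 100 bases before its RefSeq start (GRCm38.p6, chr3:69044743-69044842, minus strand) are printed because cell cycle promoters often hold a CHR element (TTTGAA) near a CCAAT box, and the capitals mark these letters on either strand. The CHR letters begin at base -85 from the start, upstream of the CCAAT letters at base -61. Whether either acts in these cells was not tested.
Trim59: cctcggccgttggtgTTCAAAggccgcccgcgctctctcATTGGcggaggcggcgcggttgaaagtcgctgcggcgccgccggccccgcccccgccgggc
A gene with several RefSeq starts, such as Trim2, was counted if the 300-base window around any of them held the letters. By this rule the CHR letters were found in 2 of the 6 members that fell, 4 of the 18 that rose and had a window, and 20.2% of all genes with a window. The CCAAT letters were in 4 of the 6, 11 of the 18 and 41.1%. The E2F letters TTCCCGC were in the windows of Trim37 and Trim28 among the 6, in 2 of the 18 and in 5.29% of all genes with a window. Among the 50 members with a window that did not pass, 9 held the CHR letters, 22 the CCAAT letters and 7 the E2F letters. The shares of all genes cover 27025 genes with a window, tested here or not. Shares among all tested genes are not given here.

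Trim37, a ligase of centrosomes and peroxisomes that restrains centriole assembly, had 78.0, 69.97, 58.0, 70.9 and 77.8 CPM in GFP high, against 89.4, 99.5, 105.8, 129 and 108 CPM in GFP low (log2 fold change -0.58 ± 0.11, adjusted p = 0.00229). The ranges did not overlap. Trim28, the corepressor that zinc finger proteins of the KRAB class recruit to chromatin, fell less. It had 194, 145, 168, 179 and 174 CPM in GFP high, against 229.7, 213, 226, 209 and 208 CPM in GFP low (-0.34 ± 0.09, adjusted p = 0.0113), also without overlap. Rnf7 fell by a similar amount, with 178, 192, 183, 189.7 and 201 CPM in GFP high, against 233, 261, 275, 219.97 and 221 CPM in GFP low (-0.36 ± 0.08, adjusted p = 0.00700). In replicates 4 and 5 alone its log2 fold change was -0.19 (adjusted p = 0.118). A stretch of 428 bases of Rnf7 is 96.0% identical to Gm7075, which had 2 counts in all libraries.

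Rnf144b, a ligase of the RING-between-RING class that is induced by p53, had the largest fold change of the members that fell, at low counts. It had 12, 12, 9, 2 and 4 counts in GFP high and 38, 74, 46, 20 and 29 counts in GFP low, which do not overlap. Means were 0.611 ± 0.366 CPM for GFP high and 3.19 ± 1.59 CPM for GFP low (± SD over 5 libraries a group, as in all means below), with a log2 fold change of -2.36 ± 0.52 (adjusted p = 0.00491). Its paralog Rnf144a had 38.7 and 43.0 CPM in GFP high and GFP low (-0.15 ± 0.11, adjusted p = 0.337).

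The NHL-repeat TRIM genes, whose proteins end in a propeller domain that binds RNA or protein, moved in opposite directions. Trim2, best known as a ligase of neurons, fell, with 38.3, 35.99, 36.1, 27.6 and 29.1 CPM in GFP high, against 53.9, 57.7, 52.4, 52.6 and 49.1 CPM in GFP low (-0.67 ± 0.11, adjusted p = 0.000867). Trim3, its close relative (ENSMUSG00000036989, chromosome 7, 105604463 to 105633571), rose, with 47.4, 49.6, 69.5, 41.3 and 45.8 CPM in GFP high, against 22.4, 21.2, 22.2, 20.7 and 25.3 CPM in GFP low (1.18 ± 0.14, adjusted p = 9.12e-05). For both genes the groups did not overlap, and both passed when replicates 1 to 3 or replicates 4 and 5 were fitted by themselves. Trim32, the third tested gene of this class, had 22.6 and 26.8 CPM in GFP high and GFP low (-0.25 ± 0.17, adjusted p = 0.316).

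**Figure D2:**
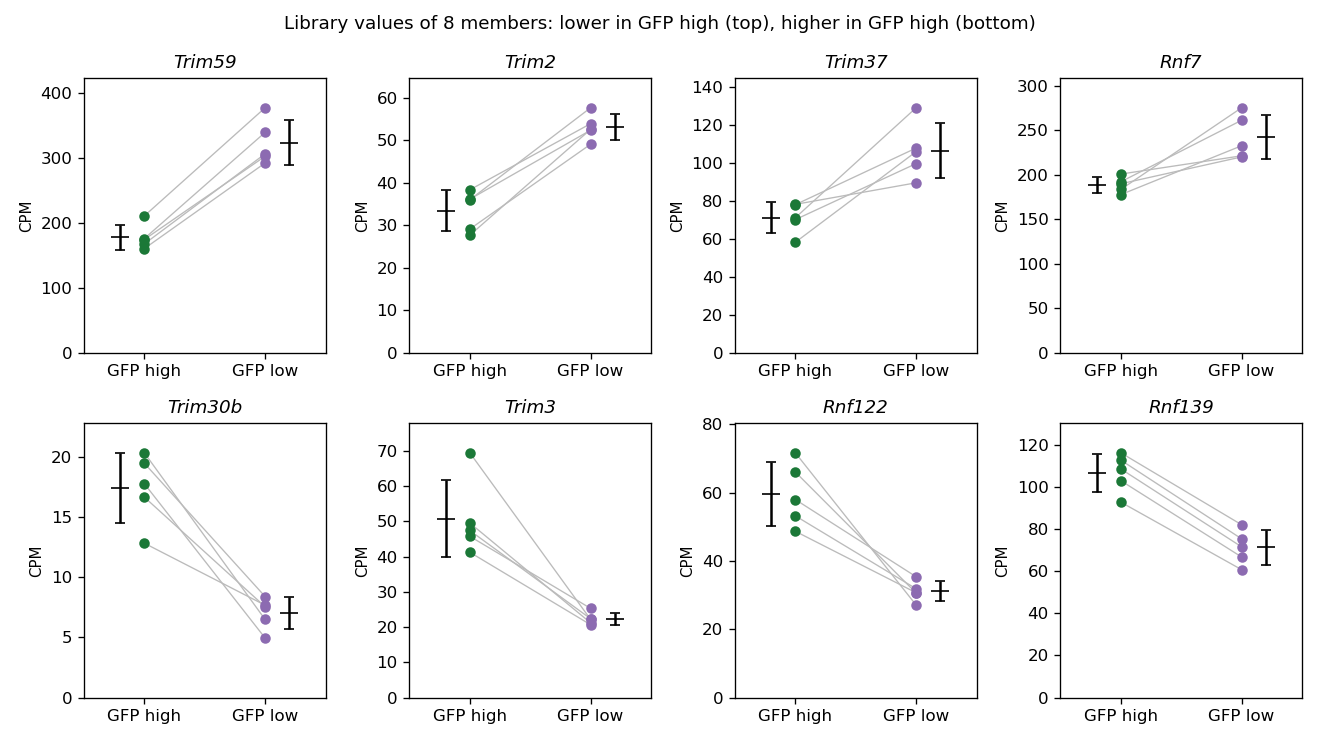
CPM in each library of 4 members that fell in GFP high (top) and 4 that rose (bottom), with lines joining libraries of the same replicate number and bars giving mean ± SD (n = 5 each). In all 8 panels the GFP high and GFP low libraries lie apart, as for Trim3, at 41.3 to 69.5 CPM in GFP high, against 20.7 to 25.3 CPM in GFP low.

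A hand-made list of 22 RNF genes of membranes and the endoplasmic reticulum had 5 of 12 tested members higher in GFP high and 0 lower. With the block 6 were higher and 0 lower. The median log2 fold change of the 12 was 0.17, and of all genes 12.0% rose and 15.4% fell. This list was chosen with earlier results of these data known, so its counts describe it and are no test of it. The list holds no TRIM genes and does not cover all membrane ligases, since Trim59 (which fell) and Rnf122 and Trim13 (which rose) are outside it. The 5 were Rnf139, Rnf167, Rnf103, Rnf13 and Rnf185. Rnf139, an endoplasmic reticulum ligase linked to sterol metabolism, had 113, 116, 109, 103 and 92.8 CPM in GFP high, against 75.4, 82.1, 71.6, 66.7 and 60.7 CPM in GFP low. These ranges lie apart (0.58 ± 0.10, adjusted p = 0.000976). Of its exonic bases 26.2% are shared with Tatdn1 on the opposite strand. Rnf167 and Rnf13, ligases of endosomes and lysosomes, had 164 ± 11.6 against 112 ± 10.7 CPM (0.55 ± 0.09, adjusted p = 0.000688) and 162 ± 9.82 against 117 ± 7.76 CPM (0.47 ± 0.08, adjusted p = 0.000811) in GFP high and GFP low. Rnf103, an endoplasmic reticulum ligase, had 73.6 ± 19.9 CPM in GFP high, against 50.5 ± 9.60 CPM in GFP low (0.54 ± 0.18, adjusted p = 0.0436). It did not pass without GFP high library 2 or 3 or GFP low library 1, 3, 4 or 5 (adjusted p = 0.0689 to adjusted p = 0.111). Rnf185, of endoplasmic reticulum protein degradation, rose by 0.32 ± 0.09 (adjusted p = 0.0167). Rnf130, another endosomal ligase, had 129 ± 12.7 CPM in GFP high, against 124 ± 7.59 CPM in GFP low (0.06 ± 0.09, adjusted p = 0.669).

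Outside this list, the strongest rise among RNF genes was that of Rnf122, which encodes a small membrane-bound RING protein (ENSMUSG00000039328, chromosome 8, 31111820 to 31131482). It had 57.9, 71.6, 66.0, 53.2 and 48.7 CPM in GFP high, against 35.4, 27.1, 30.6, 31.8 and 30.7 CPM in GFP low. All GFP high libraries were above all GFP low libraries (0.94 ± 0.12, adjusted p = 0.000173). Trim13, an endoplasmic reticulum ligase of the TRIM family, had 22.7 ± 6.92 CPM in GFP high, against 12.3 ± 4.39 CPM in GFP low (0.89 ± 0.29, adjusted p = 0.0376). It did not pass without GFP high library 1, 2 or 3 or GFP low library 2, 3 or 4 (adjusted p = 0.0531 to adjusted p = 0.0886), nor in replicates 4 and 5 alone (0.71, adjusted p = 0.192). A stretch of 1230 bases of Trim13 is 95.9% identical to the pseudogene Gm9359, which had 0 counts in all libraries.

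Signalling ligases among the members that rose included Trim8, a partner of the cytokine signalling inhibitor SOCS1, and Rnf111, which amplifies TGF-beta responses by removing their inhibitors. Trim8 had 185 ± 10.3 CPM in GFP high, against 128 ± 6.73 CPM in GFP low (0.53 ± 0.07, adjusted p = 0.000243). Rnf111 had 98.6 ± 12.4 CPM in GFP high, against 67.3 ± 9.83 CPM in GFP low (0.55 ± 0.12, adjusted p = 0.00399), and neither gene had overlapping groups. Trim39, which stabilizes an activator of apoptosis, had 26.0 ± 2.17 against 18.5 ± 3.29 CPM in GFP high and GFP low (0.49 ± 0.14, adjusted p = 0.0193). In replicates 1 to 3 alone it did not pass (0.43, adjusted p = 0.0895). Rnf123, a ligase of the cyclin-dependent kinase inhibitor p27, had 50.5 ± 3.72 against 39.5 ± 6.11 CPM (0.35 ± 0.12, adjusted p = 0.0380) and was named after its values were seen. It did not pass without GFP high library 1, 3 or 5 or GFP low library 2, 3 or 4 (adjusted p = 0.0528 to adjusted p = 0.0819), and 18.0% of its exonic bases are shared with Gmppb on the opposite strand. The remaining members that rose outside the role lists, named to complete the count, were Rnf11 (0.32), Rnf6 (0.25) and Trim11 (0.38). Rnf6 did not pass without GFP high library 2 or 3 or any 1 of the GFP low libraries (adjusted p = 0.0502 to adjusted p = 0.0779). Trim11 did not pass without GFP high library 3 or GFP low library 4 or 5 (adjusted p = 0.0517 to adjusted p = 0.0576).

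Of 20 tested genes of a hand-made list of cytosolic ligases tied to immunity or interferon, 8 rose and 0 fell (11 and 0 with the block). Their median log2 fold change was 0.31, and of all genes 12.0% rose and 15.4% fell. The list was chosen with earlier results of these data known, so these counts describe it and are no test of it. The list leaves out Trim5, which did not pass (-0.01, edgeR adjusted p = 0.974). The 8 that rose were Trim30b, Trim30c, Trim30d, Trim34a, Trim12a, Trim21, Trim26 and Rnf166. Of those outside the chromosome 7 cluster described next, Trim26, a regulator of antiviral signalling, had 154 ± 25.7 against 112 ± 12.2 CPM in GFP high and GFP low (0.46 ± 0.12, adjusted p = 0.0147), and Rnf166 rose as well (61.8 ± 4.17 against 46.7 ± 6.48 CPM, 0.41 ± 0.10, adjusted p = 0.0125). Trim21, the cytosolic antibody receptor, rose by 0.33 ± 0.11 (adjusted p = 0.0382) and did not pass without GFP high library 2, 3, 4 or 5 or GFP low library 2, 3 or 5 (adjusted p = 0.0519 to adjusted p = 0.0822). Trim25 activates the RNA sensor RIG-I, and Rnf213 is a large interferon-induced ligase. Neither passed. Trim25 had 103 and 98.8 CPM in GFP high and GFP low (0.06 ± 0.15, adjusted p = 0.781), and Rnf213 had 21.6 ± 5.02 and 21.3 ± 5.61 CPM (0.02 ± 0.21, adjusted p = 0.953). Of 24 other interferon response genes 5 rose and 0 fell, with a median of 0.22, and with the replicate block 10 rose and 1 fell. Ifit3 had 10.5 ± 2.20 against 4.40 ± 1.35 CPM (1.25 ± 0.26, adjusted p = 0.00325), but replicates 4 and 5 by themselves gave no call (0.90, adjusted p = 0.0569).

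A cluster of 10 TRIM genes on chromosome 7, from Trim6 at 104218793 to the end of Trim30d at 104507849, held 5 of these 8. This is the locus of the rodent relatives of TRIM5, which restricts retroviruses in primates. The largest changes were in the neighbors Trim30b and Trim30c. Trim30b (ENSMUSG00000052749) had 12.8, 17.8, 20.3, 16.7 and 19.5 CPM in GFP high, against 7.67, 4.95, 6.49, 7.55 and 8.39 CPM in GFP low (1.31 ± 0.19, adjusted p = 0.000330). The groups did not overlap. Trim30c (ENSMUSG00000078616), named after its values were seen because its mean was under 5 CPM, had 31, 21, 45, 82 and 58 counts in GFP high and 2, 4, 6, 12 and 5 counts in GFP low. Every GFP high library was above every GFP low library, at 3.73 ± 1.92 against 0.458 ± 0.314 CPM (3.02 ± 0.53, adjusted p = 0.00127).

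The most abundant gene of the cluster, Trim30a, which inhibits NF-kB signalling in mice, had 198, 183, 190.2, 224 and 212 CPM in GFP high, against 179.9, 178, 155, 211 and 199 CPM in GFP low. These ranges overlap (0.13 ± 0.10, adjusted p = 0.352). Trim12a rose, with 65.8 ± 5.60 against 48.9 ± 3.87 CPM in GFP high and GFP low (0.43 ± 0.09, adjusted p = 0.00408), and Trim34a rose, with 25.8 ± 1.69 against 18.4 ± 1.63 CPM (0.49 ± 0.11, adjusted p = 0.00619). Trim30d had 44.5 ± 5.46 against 33.2 ± 6.53 CPM (0.42 ± 0.14, adjusted p = 0.0436) and did not pass without GFP high library 1, 2 or 4 or GFP low library 2, 3 or 4 (adjusted p = 0.0710 to adjusted p = 0.0956). Trim5, Trim12c and Trim6 had log2 fold changes of -0.01, 0.06 and 0.87 that did not pass, although Trim6 passed under the replicate block (adjusted p = 0.00458). Trim34b was not tested. Counts of close copies are uncertain here. Over 1827 bases Trim34a is 98.7% identical to Trim34b, over 967 bases Trim12c is 96.0% identical to Trim12a, and over 2460 bases Trim5 is 95.04% identical to Trim12c.

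The 100 bases before the RefSeq starts of the Trim30 genes (GRCm38.p6, minus strand) are shown because their levels changed to different degrees. The capitals mark the interferon-stimulated response element, searched on both strands as GAAA, any 2 bases and GAAA, and found here as the reverse complement. Trim30a has a second RefSeq start, and the upstream start is shown.
Trim30b (chr7:104358647-104358746): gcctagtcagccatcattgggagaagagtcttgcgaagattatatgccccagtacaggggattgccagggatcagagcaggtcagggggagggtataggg
Trim30c (chr7:104400779-104400878): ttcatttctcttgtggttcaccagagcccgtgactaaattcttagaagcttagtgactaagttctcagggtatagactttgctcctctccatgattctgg
Trim30d (chr7:104507850-104507949): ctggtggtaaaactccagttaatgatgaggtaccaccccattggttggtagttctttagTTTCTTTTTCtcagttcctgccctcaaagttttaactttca
Trim30a (chr7:104465194-104465293): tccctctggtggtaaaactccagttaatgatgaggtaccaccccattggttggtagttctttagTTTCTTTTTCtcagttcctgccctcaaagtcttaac
The stretches of Trim30d and Trim30a were 89.5% identical in a global alignment, while those of Trim30b and Trim30c were 49.1% identical to each other and 38.7% to 47.7% identical to those of Trim30a and Trim30d. Counting any RefSeq start, the element was in the 300-base windows of 6 of the 10 cluster genes (Trim5, Trim12a, Trim12c, Trim30a, Trim30d and Trim34a). Of these 6, Trim5, Trim12c and Trim30a did not pass the threshold. Among members with a window it was in 5 of the 18 that rose, 1 of the 6 that fell and 6 of the 50 that did not pass. Of all genes with a window, tested here or not, 3.99% held it, and of the 74 tested members with a window 16.2%. The share among all tested genes is not given here. The windows of Trim30b and Trim30c did not hold these letters. The RefSeq start of Trim30b lies inside the longer gene of the annotation used for counting, so its window may not be the start used in these cells.

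**Figure D3:**
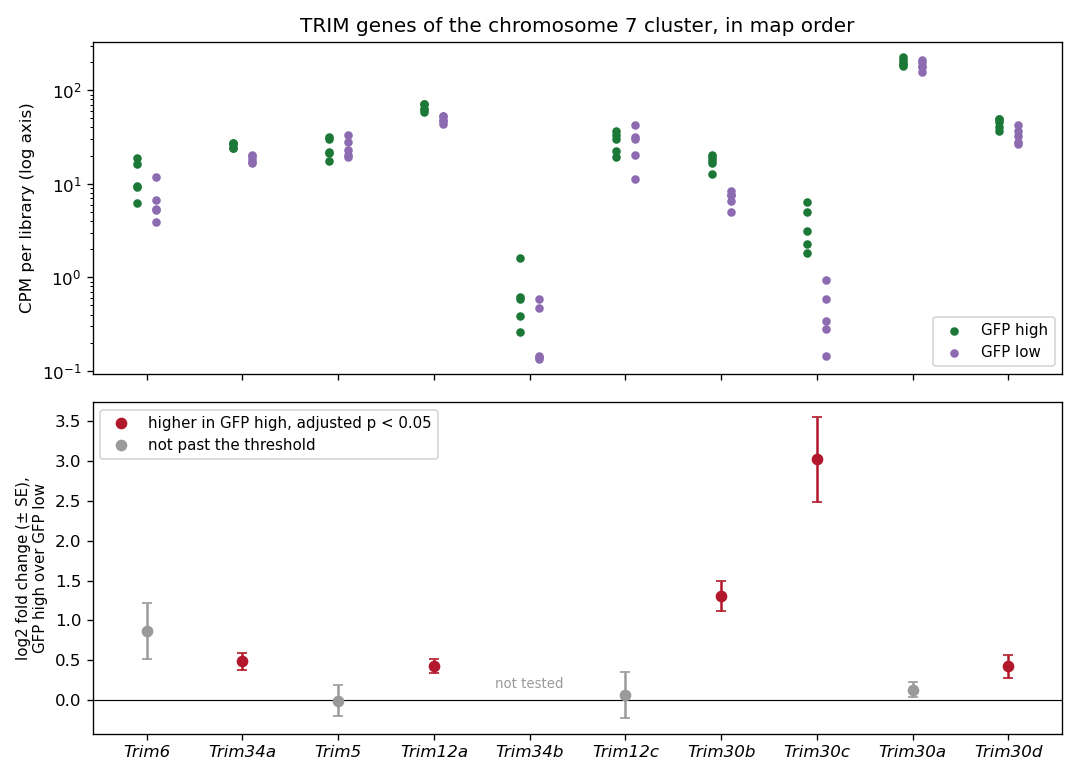
The 10 TRIM genes of the chromosome 7 cluster in map order, with CPM per library on a log axis (top) and log2 fold change with its standard error (bottom). Trim30b and Trim30c stand highest in the lower panel, at 1.31 and 3.02, while their neighbor Trim30a is the most abundant gene and lies near 0.

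Some markers of other blood cells also rose in GFP high. Of 6 tested markers of plasmacytoid dendritic cells 2 rose, Siglech (3.70 ± 1.84 against 0.154 ± 0.103 CPM in GFP high and GFP low) and Tcf4, with a summed level of 969 to 1300 CPM in GFP high, against 914 to 1211 CPM in GFP low and no marker at 0 in every library. Of 6 tested monocyte and macrophage markers 1 rose (4 with the block), Csf1r (26.1 ± 4.24 against 5.92 ± 1.81 CPM), with summed levels of 89.7 to 132 and 53.9 to 92.3 CPM. Of 3 tested NK-cell markers 1 rose and 0 fell (1 and 1 with the block), the riser being Klrb1c (274 ± 62.8 against 107 ± 43.4 CPM), with summed levels of 188 to 329 and 66.5 to 167 CPM and with Gzma and Eomes at 0 in every library. Their part in the rise of Trim30b and Trim30c was not tested. In bulk samples, a change in how many cells express a gene and a change in RNA per cell cannot be told apart.

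Of 12 tested ligases of chromatin and DNA damage, 1 rose (Rnf111) and 1 fell (Trim28), with a median log2 fold change of 0.03, and with the block 2 rose and 3 fell. Rnf2, the catalytic subunit of Polycomb repressive complex 1, had 159 ± 10.2 CPM in GFP high, against 179.8 ± 16.0 CPM in GFP low (-0.17 ± 0.08, adjusted p = 0.140). It was lower in 5 of 5 pairs and passed under the replicate block (adjusted p = 0.0336). Among its complex partners 3 of 15 rose and 0 fell (6 and 2 with the block). The 3 were Cbx7 (24.2 ± 3.13 against 10.4 ± 1.01 CPM, 1.22 ± 0.14, adjusted p = 5.94e-05), Bmi1 (0.66 ± 0.09) and Ring1, the paralog of Rnf2 (34.0 ± 2.68 against 25.2 ± 2.52 CPM, 0.43 ± 0.11), the last pair named after their values were seen. Rnf20 and Rnf40, which together ubiquitinate histone H2B, had log2 fold changes of -0.08 ± 0.09 (adjusted p = 0.529) and 0.21 ± 0.08 (adjusted p = 0.0689), the second of which passed with the block (adjusted p = 0.0467).

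Rnf168 and Rnf8 mark chromatin around DNA breaks. Rnf168 had 60.7 ± 6.55 CPM in GFP high, against 73.6 ± 10.6 CPM in GFP low (-0.28 ± 0.11, adjusted p = 0.0908). It was lower in 5 of 5 pairs and passed with the block (adjusted p = 0.0230). Fitted by themselves, replicates 1 to 3 gave no call (-0.12, adjusted p = 0.547) and replicates 4 and 5 gave one (-0.47, adjusted p = 0.0188). Rnf8 had 16.8 ± 3.27 CPM in GFP high, against 13.2 ± 0.787 CPM in GFP low (0.35 ± 0.15, adjusted p = 0.107), and 13.2% of its exonic bases are shared with Gm28043 on the same strand. Without GFP high library 3 its log2 fold change was 0.22. Of 9 tested genes that act with them, 1 rose (2 with the block) and 4 fell. Rad18, a ligase gene of DNA damage tolerance, had the lowest p of these 9, at 55.9 ± 4.39 against 97.4 ± 6.88 CPM in GFP high and GFP low (-0.80 ± 0.08, adjusted p = 3.91e-05). Brca1 (-0.89), H2afx (-0.79) and Ube2n (-0.57), the E2 of both ligases, also fell, and Trp53bp1 (0.45) rose, all 4 named after their values were seen. Among 7 tested partners of Trim28, 0 rose (1 with the block) and 3 fell, all heterochromatin protein genes, led by Cbx3 (66.3 ± 8.72 against 118 ± 11.2 CPM, -0.83 ± 0.11, adjusted p = 0.000159).

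Of 7 tested RING-between-RING ligases, 1 rose (Rnf216) and 1 fell (Rnf144b), with a median log2 fold change of 0.17, and with the block 3 rose and 1 fell. Rnf216, an inhibitor of NF-kB signalling, rose by 0.35 (adjusted p = 0.0215) and did not pass without GFP high library 3 or GFP low library 3, 4 or 5 (adjusted p = 0.0510 to adjusted p = 0.0555). Rnf31, the catalytic subunit of the complex that builds linear ubiquitin chains, had 51.3 ± 5.36 CPM in GFP high, against 41.1 ± 7.06 CPM in GFP low (0.32 ± 0.13, adjusted p = 0.0819). It was higher in 5 of 5 pairs and passed under the replicate block (adjusted p = 0.00971) and without GFP low library 1 (0.41, adjusted p = 0.0256). Of 5 genes of that complex and its regulators, 1 rose, its subunit Sharpin (96.4 ± 12.1 against 76.1 ± 9.58 CPM, 0.34 ± 0.11, adjusted p = 0.0354), which did not pass without GFP high library 1 or 3 or GFP low library 2, 3, 4 or 5 (adjusted p = 0.0548 to adjusted p = 0.0790). Rnf19b, a ligase first described in NK cells and named after its values were seen, had 219, 253, 253, 68.3 and 58.96 CPM in GFP high libraries 1 to 5 and 131, 112, 122, 42.1 and 42.99 CPM in GFP low libraries 1 to 5. Replicates 1 to 3 were above replicates 4 and 5 within each group, and GFP high was above GFP low in 5 of 5 pairs. The fit lacking a block gave no call (0.92 ± 0.46, adjusted p = 0.155) while the fit with the block gave one (0.84, adjusted p = 1.91e-05), as did replicates 1 to 3 (1.02, adjusted p = 0.000387) and replicates 4 and 5 (0.57, adjusted p = 0.0105) fitted by themselves.

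Trim58, a ligase of maturing red cells, had 6, 2, 8, 0 and 16 counts in GFP high and 13, 26, 21, 18 and 36 counts in GFP low. The groups overlap (-1.75 ± 0.67, adjusted p = 0.0708), whereas the replicate block (-2.03, adjusted p = 0.0194) and the fit leaving out GFP high library 5 gave a call (-2.48, adjusted p = 0.0185). The DESeq2 fit also gave a call (-1.76, adjusted p = 0.04565). Of 4 tested erythroid markers 1 rose (2 with the block), Hbb-bs, and the 9 listed genes summed to 16.8 to 47.2 CPM in GFP high, against 8.23 to 23.4 CPM in GFP low. Trim36, which binds microtubules, was the sole tested gene of the muscle and microtubule class, with 23.5 ± 7.44 against 20.6 ± 5.26 CPM (0.19 ± 0.23, adjusted p = 0.589).

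Other genes of the ubiquitin system were described for comparison. Of 35 tested E1 and E2 genes 2 rose and 8 fell (4 and 9 with the block), with a median log2 fold change of -0.07. Ube2c, the E2 of the anaphase-promoting complex, had 137 ± 19.0 against 316 ± 24.6 CPM in GFP high and GFP low (-1.20 ± 0.10, adjusted p = 1.28e-05). Of 25 subunits and regulators of that complex and of SCF ligases, 0 rose and 11 fell (0 and 16 with the block), with a median of -0.27. Skp2, which targets p27, had 21.0 ± 1.13 against 47.0 ± 3.51 CPM (-1.16 ± 0.10, adjusted p = 1.20e-05). Of 4 ubiquitin genes 0 rose (1 with the block) and 1 fell, Rps27a, a fusion of ubiquitin with a ribosomal protein (154 ± 17.8 against 217 ± 30.6 CPM, -0.49 ± 0.11, adjusted p = 0.00526). Rnf187, a coactivator of AP-1 and an abundant member, had 251 ± 27.0 against 284 ± 17.1 CPM (-0.17 ± 0.09, adjusted p = 0.154) and passed with the replicate block (adjusted p = 0.0250).

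**Figure D4:**
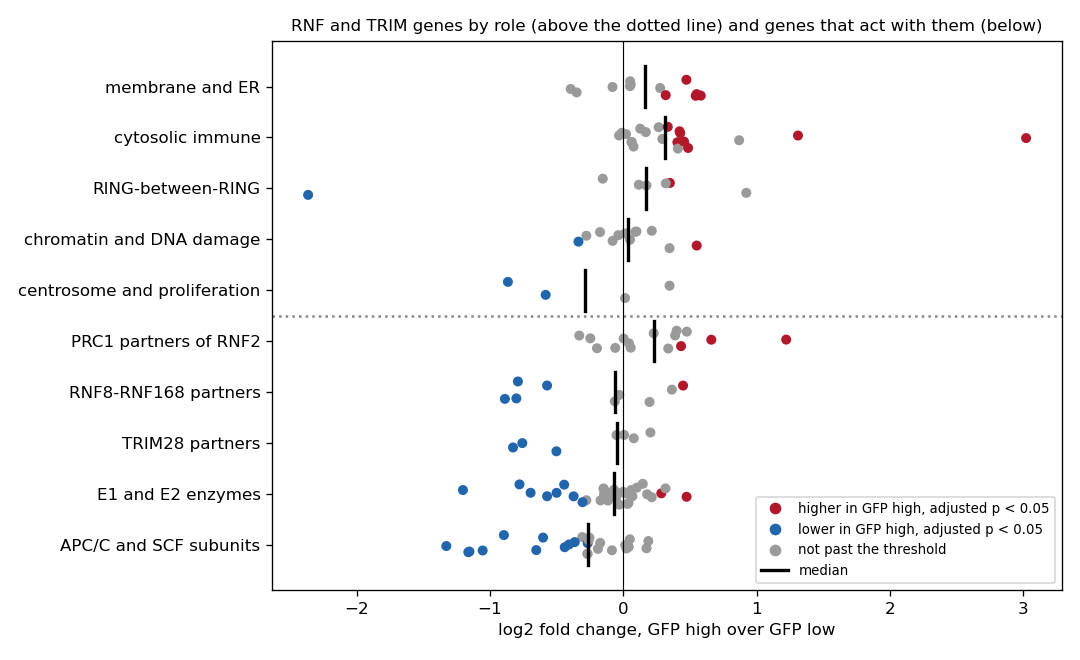
Log2 fold change of GFP high over GFP low for tested RNF and TRIM genes grouped by role (above the dotted line) and for genes that act with them (below), with the median of each group as a black bar. Points in the membrane RNF list and the immune list that passed lie to the right of 0, 5 of 12 and 8 of 20, while 11 of 25 subunits of the anaphase-promoting complex and SCF ligases passed to the left. Of all genes 12.0% rose and 15.4% fell. The lists were chosen with earlier results of these data known.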

How the data were processed

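Polyadenylated RNA was amplified with a template-switching kit for small inputs, per the labels' protocols. The deposited table holds whole-number read counts per Ensembl gene, not normalized. The submitters' processing notes name STAR, featureCounts, DESeq2 and the build mm10. Strand use and the handling of multiply matched reads are not given in the sources used here, so counts of overlapping genes, antisense genes and close copies are uncertain. Entries of 2 counts (17720) outnumbered entries of 1 (7604), so counts are not independent molecules. The limits cover counting error only and may be too low.

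Symbols, positions and exonic lengths came from GENCODE M21 (GRCm38, the build mm10), which matched 99.8% of identifiers. Promoter windows came from RefSeq (GRCm38.p6) by symbol, for 119 of 153 members. Groups came from library titles. The test was edgeR 4.0.16 under R 4.3.3 (filterByExpr, TMM, glmQLFit and glmQLFTest, GFP high over GFP low, no covariates), with Benjamini-Hochberg adjustment over 12772 genes and a threshold of 0.05. The script was tested on simulated data. Close copies were sought with megablast at 95% identity over at least 200 bases. Deviations of same-numbered libraries from their group means correlated at 0.248 to 0.353 over genes. GFP high library 5 with GFP low library 4 (0.321) and GFP high library 4 with GFP low library 5 (0.292) lay in the same range. For each library the highest correlation was with the same-numbered library of the other group. The labels do not say what a replicate number marks. The main fit therefore had no block, and pairing by number is an assumption of the block fit and of the counts of pairs.

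The members, lists and naming rule were chosen with earlier results of these data known. The rule named up to 10 members per direction with the largest change among those past the threshold at a mean of at least 5 CPM, the 3 most abundant members per kilobase of each family, the member of each role list with the lowest p, 10 fixed members, and the gene with the lowest p in each list of other genes. Genes outside this rule were picked with their values in view. Alternatives were RLE size factors, other filters on low counts, DESeq2 1.42.0, the replicate block and subsets of libraries. The values of 1 marker list are not reported here.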

Additional observations from a re-analysis of the deposited data

Results flagged for a closer look

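Among the named members, 54 groups of 5 libraries were screened for a library whose gap to its nearest neighbor took up most of the range of its group, a screen that flags about 1 group in 20 by chance. It found 4. Rnf167 had 185 CPM in GFP high library 3, against 157 to 162 CPM in the other GFP high libraries, and 93.1 CPM in GFP low library 3, against 114 to 118 CPM in the other GFP low libraries. Without both libraries numbered 3 Rnf167 still rose (0.45, edgeR adjusted p = 0.00317). Rnf8 had 22.4 CPM in GFP high library 3, against 14.6 to 16.7 CPM in the others. Trim39 had 22.2 CPM in GFP high library 5, against 26.7 to 27.6 CPM in the others.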

How the results depend on the processing

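Counts of calls moved by more than 1.5 times in 7 cases. With DESeq2 19 RNF genes were higher, where 1899 genes of all were higher. With the replicate block 23 RNF genes were higher and 6 lower, where 2645 genes of all were higher and 2688 lower. Of these counts the 2688 did not move by that much. Among the 35 genes of the naming rule the block newly passed Rnf2, Rnf31, Rnf168, Rnf187 and Trim58 and changed no other call. Of the members named outside that rule it newly passed Rnf19b, Rnf40 and Trim6. Without both libraries numbered 3, 6 TRIM genes and 926 genes of all were higher. In replicates 4 and 5 alone 6 TRIM genes were higher, where 1332 genes of all were higher. With single libraries left out, 9 to 14 RNF genes were higher and 2 lower, 9 to 13 TRIM genes were higher and 4 to 5 lower, and 1189 to 1479 genes of all were higher and 1617 to 1940 lower. Over these 35 genes and all alternatives, 588 of 630 values kept their direction and their side of the threshold, 29 no longer passed, 9 newly passed and 4 changed sign. The 4 were all of Rnf213, which ranged from -0.12 to 0.13 with single libraries left out and was -0.072 without both libraries numbered 3. The median of RNF genes was 0.11 in replicates 4 and 5 alone. The cause of these changes was not tested. Subsets with libraries left out hold fewer samples. Rnf144b and Trim58 rest on 2 to 74 and 0 to 36 counts per library.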

Other observations

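Rnf150, an endosomal ligase that was not tested, was counted 8, 0, 2, 0 and 1 times across GFP high libraries 1 to 5, against 47, 12, 4, 2 and 4 times across GFP low libraries 1 to 5. GFP low library 1 held most of its reads. Trim15 was also not tested and had 14 counts in GFP high library 3, 3 in GFP high library 5 and at most 4 in any other library.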
